A study of Mus musculus with 6 samples.

Results

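The clock output factors are the transcription factors and enzymes through which the circadian clock reaches its target genes, and 9 of them were followed in mouse intestine: Dbp, Tef, Hlf, Nfil3, Ciart, Bhlhe40, Bhlhe41, Usp2 and Wee1. They were chosen by gene symbol, with earlier results of these data known. Each symbol matched exactly 1 of the 25416 rows of the expression table, so all 9 were found. The study sequenced polyadenylated RNA of intestine from 3 libraries of Rnf111 S254D heterozygotes, labelled HET, and 3 libraries labelled WT. Rnf111 (Arkadia) is a ubiquitin ligase known for its place in TGF-beta signalling. The labels do not give the strain, age, sex, intestinal segment, time of day of collection or whether each library came from its own animal, so each rhythmic transcript was read at an unstated phase and p-values speak only of the variation among these 6 libraries, which may be technical.

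In the mammalian clock, Clock and Bmal1 (listed under its older symbol Arntl) activate genes through the E-box, CACGTG. Among these genes are the proline- and acid-rich (PAR) bZIP factors Dbp, Tef and Hlf, which activate transcription from the D-box. Nfil3 (E4BP4), a bZIP repressor, binds the same element and opposes them. Ciart (Chrono) and the DEC factors Bhlhe40 (Dec1) and Bhlhe41 (Dec2) feed back on Clock and Bmal1 as repressors, while the deubiquitinase Usp2 and the cell cycle kinase Wee1 are rhythmic effectors. In mouse intestinal epithelium Nfil3 is known to link the clock and the microbiota to lipid uptake.

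The E-boxes close to the start sites of the members are shown because Clock and Bmal1 act through this element. RefSeq promoter windows on GRCm38.p6 were matched for 7 of the 9 members (not Bhlhe40 or Wee1), with 8 windows in all because Tef has a pair of start sites, and the 250 bases before each start site were searched on both strands. Of these 8 windows 4 held CACGTG, those of 3 genes, and they are printed 5′ to 3′ with the E-boxes in capitals.
Ciart (chr3:95882229-95882478, minus strand): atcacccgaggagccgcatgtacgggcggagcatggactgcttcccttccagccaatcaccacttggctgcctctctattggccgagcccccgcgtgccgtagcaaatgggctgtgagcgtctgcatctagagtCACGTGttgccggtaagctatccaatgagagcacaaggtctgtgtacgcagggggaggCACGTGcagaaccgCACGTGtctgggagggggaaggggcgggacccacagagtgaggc
Tef, upstream start site (chr15:81802423-81802672, plus strand): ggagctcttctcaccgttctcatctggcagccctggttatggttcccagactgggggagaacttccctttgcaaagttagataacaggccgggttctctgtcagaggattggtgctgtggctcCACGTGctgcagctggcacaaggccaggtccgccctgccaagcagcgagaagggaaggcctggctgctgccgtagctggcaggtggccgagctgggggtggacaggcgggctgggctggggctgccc
Tef, downstream start site (chr15:81811164-81811413, plus strand): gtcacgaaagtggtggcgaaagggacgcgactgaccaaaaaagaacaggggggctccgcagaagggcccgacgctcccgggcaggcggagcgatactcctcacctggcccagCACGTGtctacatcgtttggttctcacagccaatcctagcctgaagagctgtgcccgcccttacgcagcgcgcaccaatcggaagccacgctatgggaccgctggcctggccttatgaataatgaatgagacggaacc
Bhlhe41 (chr6:145865421-145865670, minus strand): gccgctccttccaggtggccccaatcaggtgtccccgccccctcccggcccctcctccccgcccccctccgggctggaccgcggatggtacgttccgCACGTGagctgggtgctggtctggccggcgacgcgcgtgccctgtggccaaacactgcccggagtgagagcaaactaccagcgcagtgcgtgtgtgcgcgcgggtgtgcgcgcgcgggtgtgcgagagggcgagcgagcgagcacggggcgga
Ciart held 3 E-boxes, which began 116, 58 and 44 bases before its start site, and Tef held 1 in each window, 127 and 138 bases before the start site. The E-box of Bhlhe41 began 153 bases before its start site. Over all 32851 windows 6.02% held CACGTG and 0.0609% held 3 or more. No member window held a D-box as TTATGTAA (0.819% of all windows) or as TTACGTAA (0.113%). Nfil3 held AGGTCA, the core of the ROR element, 12 bases before its start site (14.0% of all windows), and Hlf held the cAMP response element TGACGTCA 9 bases before (1.55%). The other member windows held neither AGGTCA nor TGACGTCA. A match is a run of letters, not a binding site.

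Levels are given in FPKM, fragments scaled to transcript length and library size, as the authors deposited them. Log2 fold changes, HET minus WT, were taken after adding a pseudocount of 1, which shrinks the changes of weak genes. They were tested with limma over all genes that reached an FPKM of 1 in 3 or more libraries, with Benjamini-Hochberg adjusted p under 0.05 as the threshold. The summed FPKM was 469968 to 510568 in HET libraries and 493950 to 520095 in WT libraries. The lowest FPKM values imply a depth of 20000000 to 22100000 fragments for the HET libraries and 20900000 to 26000000 for the WT libraries, as a rough estimate. Rnf111 itself was at 4.43, 4.83 and 4.25 FPKM in HET and at 4.97, 5.29 and 5.34 FPKM in WT (log2 fold change -0.17, SE 0.06, limma adjusted p = 0.0609), which does not check the genotype since a substitution need not alter the transcript level. Villin (Vil1), an epithelial brush border protein, was at 703 to 883 FPKM in HET and at 716 to 760 FPKM in WT, so the labelled tissue carried its defining epithelium.

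Most of the output factors were more abundant in HET intestine: Ciart, Usp2, Tef, Dbp and Bhlhe40 rose, Nfil3 fell, and Hlf and Wee1 did not pass the test. Bhlhe41 was too weak for the test and lay lower in every HET library. In counts, 5 of the 8 tested members were higher, where 10.7% of all 11870 tested genes were, and 1 was lower, where 35.7% were, which makes 6 called members of 8 beside 46.4% of all tested genes. The FPKM of the genotypes did not overlap for the same 6 tested members, where they did not overlap for 59.8% of all tested genes, nor for Bhlhe41. The members were chosen with earlier results of these data known, and Ciart entered the test through its HET libraries alone. The count over tested members is therefore given as a description. The median log2 fold change was 0.52 over the tested members and -0.12 over all tested genes.

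**Figure D1:**
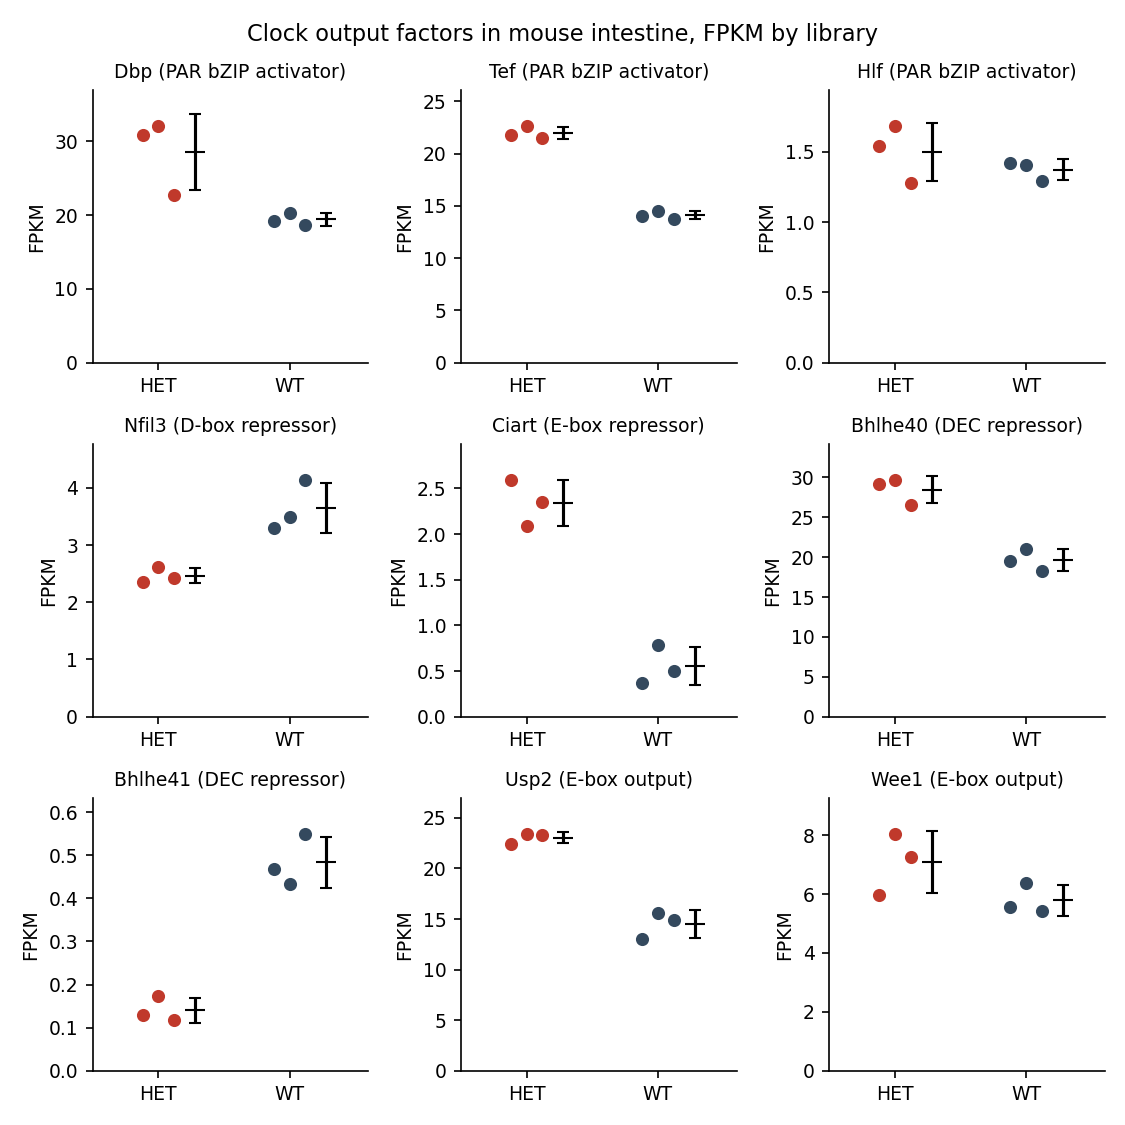
FPKM of the 9 members, 1 panel each, with a point per library (HET left, WT right) and a bar at the mean ± SD (n = 3 libraries each); every axis starts at 0. The HET points lie above the WT points for Dbp, Tef, Ciart, Bhlhe40 and Usp2, below them for Nfil3 and Bhlhe41, and among them for Hlf and Wee1.

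Among the PAR bZIP activators, Tef showed the tightest difference. Tef, the thyrotroph embryonic factor, was at 21.8, 22.6 and 21.5 FPKM in HET and at 14.0, 14.6 and 13.8 FPKM in WT. The libraries of each genotype were close together and the genotypes stood apart. Its mean was 21.98 ± 0.593 FPKM in HET and 14.1 ± 0.399 FPKM in WT (SD, n = 3 each), a log2 fold change of 0.60 (SE 0.05, limma adjusted p = 0.000281).

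Dbp, the D-site binding protein and the most strongly rhythmic member of the family in most mouse organs, was at 30.9, 32.1 and 22.7 FPKM in HET and at 19.2, 20.3 and 18.7 FPKM in WT. HET replicate 3 was well below the other HET libraries, though still above every WT library. The mean was 28.5 ± 5.11 FPKM in HET and 19.4 ± 0.833 FPKM in WT, a log2 fold change of 0.52 (SE 0.13, limma adjusted p = 0.0148). This call was lost without WT replicate 1 (log2 fold change 0.51, adjusted p = 0.0501) and without WT replicate 3 (0.49, adjusted p = 0.0548), whereas without HET replicate 3 the log2 fold change was 0.67 (adjusted p = 0.0007). Exons of Dbp overlap those of Sphk2, a sphingosine kinase on the opposite strand, over 539 bases in the GENCODE M21 annotation. No source used here says whether fragments were counted by strand. Sphk2 was at 23.7 to 27.5 FPKM in HET and at 26.9 to 30.8 FPKM in WT, with none of the HET values above the WT range. Exons of Bhlhe40, Bhlhe41, Tef and Usp2 also overlap exons on the opposite strand, by 118 (Bhlhe40) to 1280 bases (Bhlhe41).

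Hlf, the hepatic leukemia factor, was the weakest of the activators, at 1.54, 1.68 and 1.28 FPKM in HET and 1.42, 1.41 and 1.29 FPKM in WT. The genotypes overlapped, and the log2 fold change of 0.07 did not pass (95% confidence interval -0.11 to 0.26, limma adjusted p = 0.473), while quantile normalization gave 0.39 (adjusted p = 0.00865). The summed FPKM of Dbp, Tef and Hlf was 54.2, 56.4 and 45.5 in HET and 34.7, 36.3 and 33.8 in WT. Dbp made up 49.9% to 57.0% of that sum in HET and 55.4% to 56.0% in WT, so the activators kept a similar order. Hlf made up 2.81% to 2.99% of the sum in HET and 3.82% to 4.10% in WT, shares that did not overlap.

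Nfil3, the repressor that competes with these factors for the D-box, moved the other way. It was at 2.36, 2.61 and 2.42 FPKM in HET and at 3.30, 3.49 and 4.14 FPKM in WT. Every HET library was below every WT library. The means were 2.46 ± 0.134 and 3.64 ± 0.438 FPKM, with a log2 fold change of -0.42 (SE 0.08, limma adjusted p = 0.00605), or -0.30 once the median over all tested genes was subtracted. With quantile normalization its log2 fold change was -0.17 and the call was lost (adjusted p = 0.0833).

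Ratios between members within 1 library depend little on library scaling, so activator and repressor were also set against each other. Dbp FPKM was 13.1, 12.3 and 9.37 times Nfil3 FPKM in HET and 5.82, 5.82 and 4.52 times in WT. On the scale of log2(FPKM + 1), the ratio of Dbp to Nfil3 averaged 3.08 ± 0.25 in HET and 2.14 ± 0.17 in WT. The difference was 0.94, with an exact two-sided permutation p of 0.1, the smallest that 3 against 3 libraries allow. Every HET library was above every WT library for Dbp and below for Nfil3. The separation of this ratio and its p were therefore fixed by the single genes and add no support of their own. Taking the activators together, their summed FPKM was 21.1 ± 2.15 times that of Nfil3 in HET and 9.68 ± 1.32 times in WT.

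**Figure D2:**
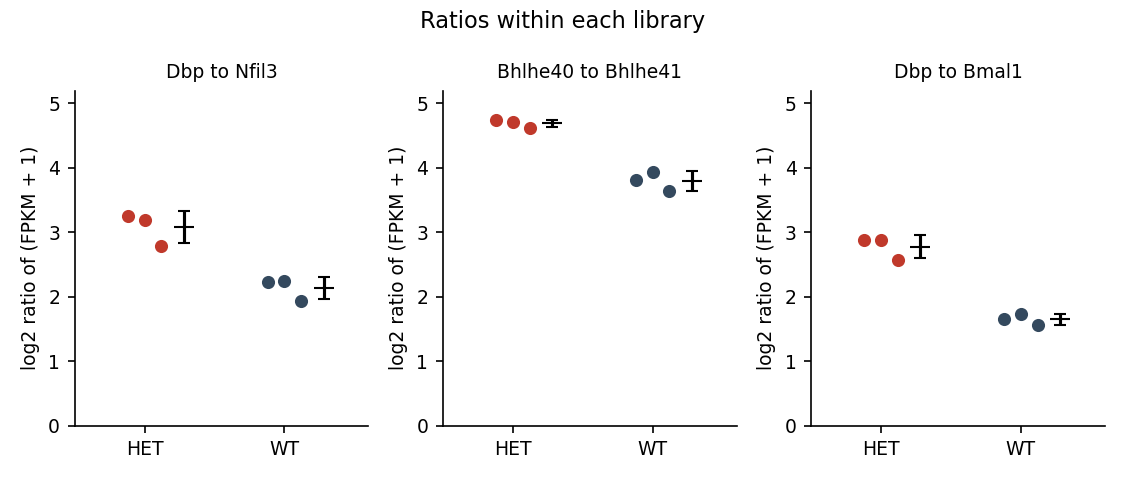
Log2 ratio of FPKM + 1 between pairs of genes within each library, with a point per library (HET left, WT right) and a bar at the mean ± SD (n = 3 libraries each). For Dbp to Nfil3, Bhlhe40 to Bhlhe41 and Dbp to Bmal1 all 3 HET points lie above all 3 WT points, with differences of 0.94, 0.90 and 1.13. This separation follows from that of the single genes in opposite directions.

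Among the repressors that act on Clock and Bmal1, Ciart had the highest ratio between genotypes. Ciart, which binds Bmal1 and represses E-box transcription, was at 2.59, 2.08 and 2.35 FPKM in HET and at 0.374, 0.784 and 0.503 FPKM in WT. The HET libraries were all above 1 FPKM and the WT libraries all below it. Mean FPKM was 2.34 ± 0.255 in HET and 0.554 ± 0.210 in WT, a ratio of 4.23 that ranged from 3.64 to 5.34 when any 1 library was left out. The log2 fold change was 1.11 (SE 0.11, limma adjusted p = 0.000467), and 2.12 with a pseudocount of 0.01. Since Ciart passed the filter through its HET libraries alone, its entry into the test depended on the difference itself. Without the filter the adjusted p was 0.0018, and with a filter on the mean over all 6 libraries, added after seeing the data, it was 0.000548. At the estimated depth these levels stand for roughly 89 to 101 fragments per HET library and 15 to 38 per WT library. Ciart is also the member whose window, printed above, held 3 E-boxes. Tef, also called higher, held 1 in each window, and Bhlhe41, which lay lower in HET, held 1. Dbp and Usp2, called higher, had no E-box in their windows. A link between E-boxes and the changes was not tested.

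The DEC factors went in opposite directions. Bhlhe40, a basic helix-loop-helix repressor that competes with Clock and Bmal1 at E-boxes, was at 29.1, 29.7 and 26.5 FPKM in HET and at 19.6, 21.0 and 18.3 FPKM in WT. The genotypes did not overlap, and its log2 fold change was 0.52 (SE 0.07, limma adjusted p = 0.0016). Its close relative Bhlhe41 was at 0.130, 0.172 and 0.117 FPKM in HET and at 0.469, 0.433 and 0.549 FPKM in WT, below the filter in every library.

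The mean of Bhlhe41 was 3.46-fold lower in HET (0.140 ± 0.0289 against 0.484 ± 0.0594 FPKM), with p = 0.1 in an exact two-sided permutation test, again the smallest possible. Without the filter limma gave an adjusted p of 0.00211. These levels stand for roughly 14 to 23 fragments per HET library and 60 to 88 per WT library. Exons of Bhlhe41 overlap those of Gm43909, on the opposite strand and without an FPKM value here, over 1280 bases. Whether fragments were counted by strand was not given. FPKM of Bhlhe40 was 224, 172 and 227 times that of Bhlhe41 in HET and 41.7, 48.4 and 33.3 times in WT. The difference in the log2 ratio of FPKM + 1 was 0.90 (exact two-sided permutation p = 0.1), and it was 1.82 with a pseudocount of 0.1. Since the DEC factors each separated the genotypes, in opposite directions, that p was fixed beforehand.

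The E-box effectors differed in how clearly they moved. Usp2, a deubiquitinase reported to act on clock proteins and cyclin D1, was at 22.4, 23.4 and 23.3 FPKM in HET and at 13.0, 15.6 and 14.9 FPKM in WT. Every HET library was above every WT library, and the means were 23.1 ± 0.541 and 14.5 ± 1.36 FPKM (log2 fold change 0.64, SE 0.07, limma adjusted p = 0.00082). Wee1, the kinase that holds back mitotic entry by phosphorylating Cdk1, was at 5.97, 8.04 and 7.25 FPKM in HET and at 5.55, 6.39 and 5.44 FPKM in WT. HET replicate 1 lay within the WT range.

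The difference in Wee1, a log2 fold change of 0.25 (95% confidence interval -0.01 to 0.50), did not pass with FPKM as deposited (limma adjusted p = 0.0992). It passed without HET replicate 1 (0.35, adjusted p = 0.0156), with median-ratio scaling (0.37, adjusted p = 0.0297) and with quantile normalization (0.41, adjusted p = 0.0195).

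Scaling mattered because most calls across all genes ran downward. With FPKM as deposited 23.1% of all called genes were higher in HET, against 33.1% with a common sum per library, 47.9% with median-ratio scaling and 56.3% with quantile normalization, and the median over all tested genes was -0.12, -0.07, 0.00135 and 0.04 on the log2 scale in that order. Each of the 9 members kept its direction under all of these scalings. The log2 fold changes of Tef, Usp2, Dbp, Bhlhe40 and Ciart ranged from 0.57 (Dbp and Bhlhe40, common sum) to 1.35 (Ciart, quantile normalization) and stayed past the threshold in each. The filter on FPKM as deposited was kept under every scaling, and Ciart passed it through its HET libraries alone.

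**Figure D3:**
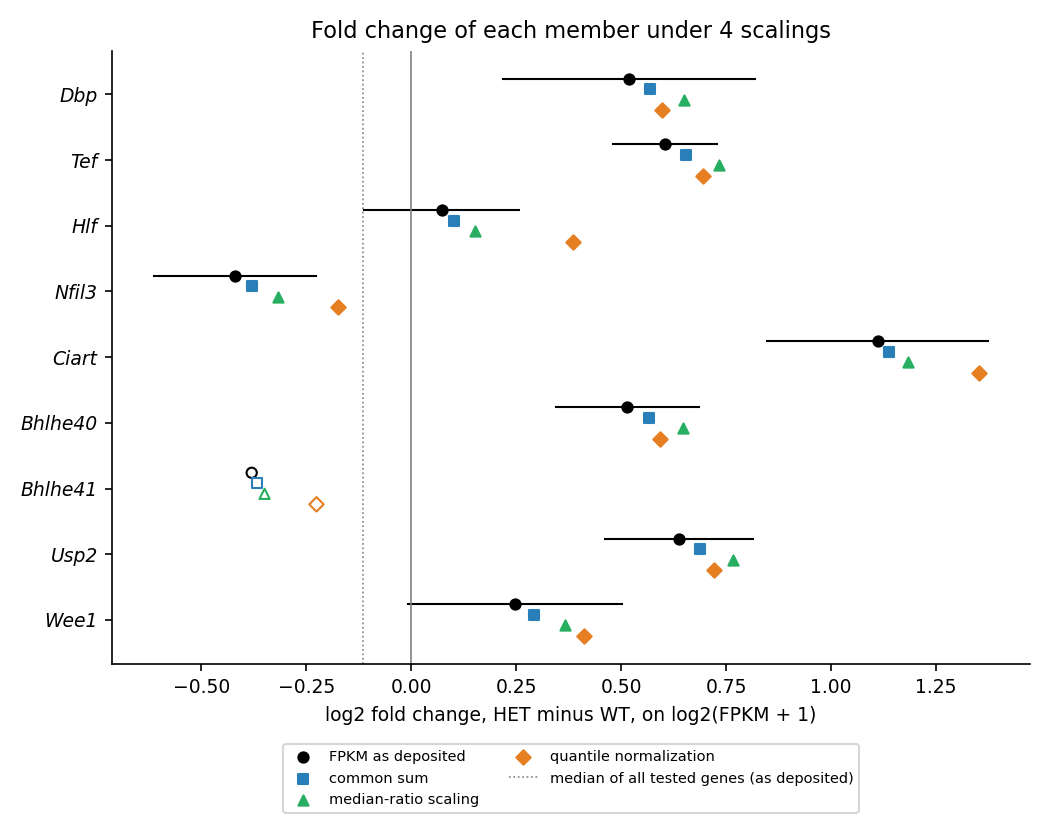
Log2 fold change, HET minus WT on log2(FPKM + 1), of each member with FPKM as deposited (black, with the 95% confidence interval from limma) and under 3 other scalings. Open symbols mark Bhlhe41, which was below the filter. Each member stays on its side of 0 under every scaling shown, and Nfil3 lies nearer to 0 with quantile normalization (-0.17) than with the others.

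The order of levels was similar in the genotypes. In HET the order of mean FPKM was Dbp, Bhlhe40, Usp2, Tef, Wee1, Nfil3, Ciart, Hlf and Bhlhe41, and in WT it was Bhlhe40, Dbp, Usp2, Tef, Wee1, Nfil3, Hlf, Ciart and Bhlhe41. Neighbours whose ranges overlapped in HET were Dbp with Bhlhe40, Usp2 with Tef, and Nfil3 with Ciart, and the range of Dbp also reached that of Usp2. In WT they were Bhlhe40 with Dbp, Usp2 with Tef, and Ciart with Bhlhe41. Ciart was thus level with Nfil3 in HET and with Bhlhe41 in WT.

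Other clock genes were counted from lists that were chosen with earlier results of these data known. The counts are therefore given as descriptions. Of 12 core clock genes 11 were tested, and 5 rose, where 10.7% of all tested genes did, 3 fell, a share below the 35.7% of all tested genes, and 3 did not pass. The median log2 fold change was 0.03 beside -0.12 over all tested genes. Per1, Per2, Cry1 and Cry2, which encode repressors of Clock and Bmal1, rose, and the period gene Per3 did not pass. Per1 was at 4.61 ± 0.188 FPKM in HET and 1.76 ± 0.0694 FPKM in WT (limma adjusted p = 8.72e-05), and Per2 at 5.54 ± 0.277 and 2.46 ± 0.223 FPKM (adjusted p = 0.000199). Cry1 was 1.51-fold and Cry2 1.41-fold higher.

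The core activator Bmal1 fell, at 3.26 ± 0.249 FPKM in HET and 5.51 ± 0.160 FPKM in WT (Arntl, limma adjusted p = 0.000548). So did the REV-ERB repressors of Bmal1, Nr1d1 (23.4 ± 0.345 against 43.0 ± 3.04 FPKM, adjusted p = 0.000199) and Nr1d2 (1.32-fold lower). Clock (5.63 ± 0.498 against 6.49 ± 0.223 FPKM), Npas2 (3.57 ± 0.843 against 4.17 ± 0.146) and Per3 (1.54 ± 0.309 against 1.48 ± 0.117) did not pass, and Rora was below the filter (0.172 ± 0.0331 against 0.464 ± 0.135). Dbp FPKM was 9.29, 9.23 and 7.59 times that of Arntl in HET and 3.55, 3.75 and 3.28 times in WT. The log2 ratio of FPKM + 1 differed by 1.13 (exact two-sided permutation p = 0.1). That p was fixed beforehand, since Dbp was higher and Arntl lower in every HET library than in any WT library. Nr1d1 is, like Dbp and Ciart, an E-box target, and it stood opposite to both in direction.

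Genes reported as targets of the PAR bZIP factors or Nfil3 in mouse liver, kidney or gut made a further list of 16. Of these 12 were tested, 5 rose, 0 fell and 7 did not pass (median log2 fold change 0.34), beside 10.7% higher and 35.7% lower of all tested genes, and Cyp2a5, Cyp2c37, Cyp2c50 and Cyp7a1 were listed at 0 in every library. At an unadjusted p under 0.05 there was likewise no fall. Por, the electron donor of cytochrome P450 enzymes, was at 126, 133 and 109 FPKM in HET and 67.2, 77.2 and 62.0 FPKM in WT (limma adjusted p = 0.00115). Abcb1a, a drug efflux pump, was at 73.1 ± 12.1 FPKM in HET and 41.6 ± 5.63 FPKM in WT (adjusted p = 0.00452). Cyp3a11 and Cyp2b10, enzymes of drug and steroid oxidation, were 1.95-fold and 1.55-fold higher. The fifth gene that rose was the nuclear receptor Nr1i3 (CAR), named after its values were seen, at 1.45-fold. Without HET replicate 1 the count that rose was 9. Scd1, a fatty acid desaturase, ranged from 4.69 to 17.4 FPKM in HET and from 10.8 to 87.1 FPKM in WT and did not pass (adjusted p = 0.121).

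**Figure D4:**
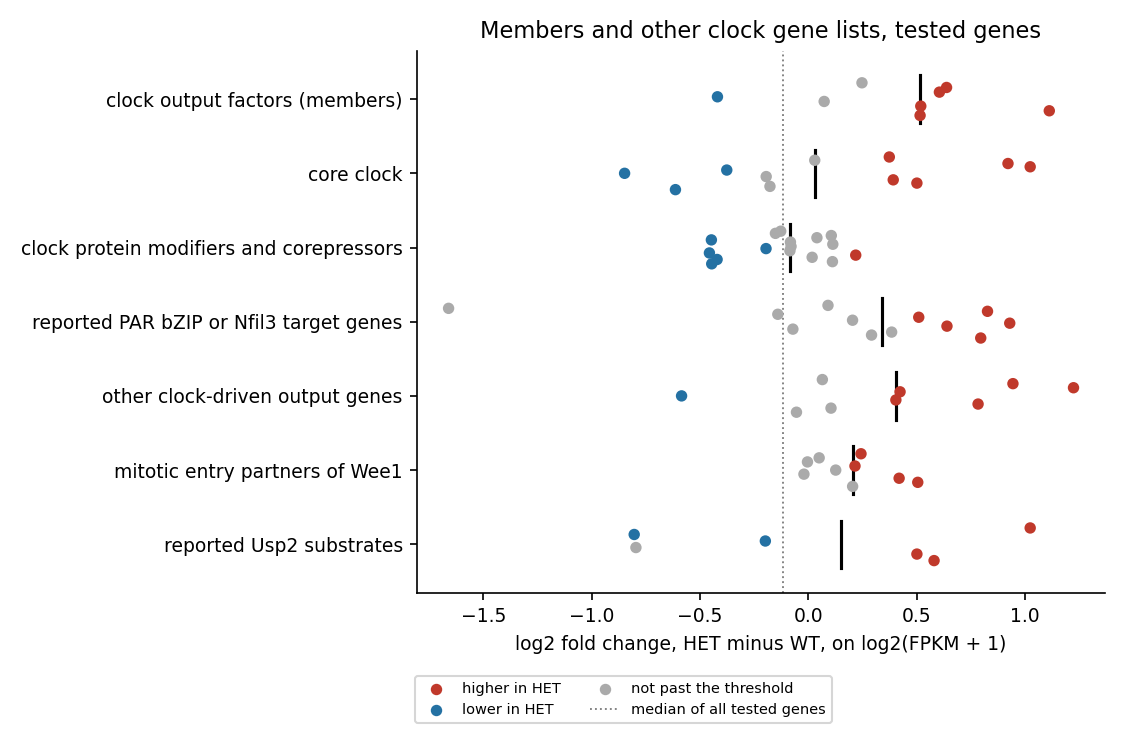
Log2 fold change, HET minus WT on log2(FPKM + 1), of each tested gene of the members and of 6 further lists; black bars are list medians and the dotted line is the median of all tested genes (-0.12). The members, the reported PAR bZIP or Nfil3 targets and the other output genes have medians of 0.52, 0.34 and 0.40, and the core clock genes spread to both sides.

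Of 11 other clock-driven output genes 9 were tested, 5 rose, 1 fell and 3 did not pass (median log2 fold change 0.40), beside the same 10.7% and 35.7%. Noct (nocturnin), a rhythmic phosphatase, was at 20.2 ± 5.24 FPKM in HET and 7.92 ± 0.796 FPKM in WT (limma adjusted p = 0.00149). Tsc22d3 (GILZ), also a known glucocorticoid-induced gene, was 1.97-fold higher, Herpud1, of endoplasmic reticulum protein quality control, 1.73-fold, and the repressor Klf10 1.36-fold. Named after their values were seen, Nampt, the limiting enzyme of NAD salvage, was 1.35-fold higher and Klf9 was the gene that fell (1.62-fold lower).

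Of 16 tested clock protein modifiers and corepressors 1 rose, 5 fell and 10 did not pass (median log2 fold change -0.08). These shares lay near or below the 10.7% higher and 35.7% lower of all tested genes, so the falls below are single values and set the list apart from no other genes. Btrc, an F-box protein that marks period proteins for degradation, was 1.496-fold lower. The corepressor Ncor1 and the period kinase Csnk1e were 1.38-fold and 1.45-fold lower. Fbxw7 also fell and Csnk2b was the gene that rose, both named after their values were seen.

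The partners of the kinase and of the deubiquitinase were counted as well. All 9 mitotic entry partners of Wee1 were tested, 4 rose, 0 fell and 5 did not pass (median log2 fold change 0.20), beside 10.7% higher and 35.7% lower of all tested genes. Those that rose were Ccnb2, Cdc25a, Plk1 and Wee1's own substrate Cdk1 (9.19 ± 0.670 FPKM in HET and 7.77 ± 0.302 FPKM in WT, limma adjusted p = 0.035). No partner fell at an unadjusted p under 0.05 either. Of 6 tested transcripts whose proteins are reported Usp2 substrates 3 rose, 2 fell and 1 did not pass, and the share that fell was near the 35.7% of all tested genes, while 10.7% of all tested genes rose. Cyclin D1 (Ccnd1) rose, at 34.4 ± 5.58 FPKM in HET and 22.5 ± 1.55 FPKM in WT (adjusted p = 0.00767), as did Per1 and Cry1, counted above. The p53 regulator Mdm4 was 1.92-fold lower, and its relative Mdm2, named after its values were seen, 1.16-fold lower.

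In whole tissue, fewer cells of a type and less RNA per cell cannot be told apart, and marker lists moved with genotype. Of 10 tested T, NK and innate lymphoid markers 9 fell and 1 rose, with a summed FPKM of 149 to 208 in HET and 283 to 349 in WT. All 9 macrophage and dendritic cell markers fell (86.3 to 146 FPKM in HET, 215 to 234 in WT), as did all 8 fibroblast markers (23.2 to 35.7 against 136 to 155), all 7 smooth muscle markers and 6 of 7 endothelial markers, where 35.7% of all tested genes fell. The endothelial count includes Tek, which passed the filter through its WT libraries alone (0.696 ± 0.102 FPKM in HET against 1.52 ± 0.0423 FPKM in WT; without the filter, limma adjusted p = 0.00215). All 5 tested B and plasma cell markers, both tested neuron and glia markers and all 8 Paneth cell markers fell. None of these lists had a marker at 0 in every library. Lymphoid and myeloid cells are known to express Nfil3 and the DEC factors. Of these genes Nfil3 and Bhlhe41 were lower in HET, while Bhlhe40 was higher (mean 28.5 FPKM in HET and 19.6 FPKM in WT). The part of these cells in the levels of Nfil3, Bhlhe41 and Bhlhe40 was not tested.

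Most epithelial markers did not pass. Of 10 epithelial markers 2 rose, 0 fell and 8 did not pass, beside 10.7% higher and 35.7% lower of all tested genes. Their summed FPKM was 4988 to 5778 in HET and 5051 to 5189 in WT. Of 10 enterocyte markers 3 rose, 0 fell and 7 did not pass, beside the same shares. Among those that did not pass, Lct was lower in every HET library than in any WT library (126 ± 21.5 against 161 ± 7.91 FPKM, limma adjusted p = 0.0506). The summed FPKM of the enterocyte markers was 28370 to 31430 in HET and 20450 to 23010 in WT. This sum leans on the most abundant of them, such as Fabp2 (mean 6794 FPKM in HET and 4572 FPKM in WT). The part of enterocyte abundance in the rises of the output factors was not tested. Of 5 pancreatic acinar markers found, Prss1 was listed at 0 in every library and the 1 tested did not pass.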

How the data were processed

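Gene-level FPKM values of 6 libraries were used as the authors deposited them, in a table whose column names match the sample titles. Oligo(dT) beads and a SMARTER kit were used for the libraries, per the labels' protocols. The submitters' processing notes name the build GRCm39, while aligner, counter, annotation and strand use were not given in the sources used here. No pair of libraries held identical values (0 pairs).

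Genes that reached an FPKM of 1 in 3 or more libraries (11870) were fitted with limma 3.58.1 (R 4.3.3) on log2(FPKM + 1) (eBayes with trend, genotype as the only term), with Benjamini-Hochberg adjustment over all of them. The fit was first tested on simulated data in which 200 of 11870 genes were changed. It recovered 51.5% of changes of 0.5 and 91.0% of changes of 1.0 on the log2 scale. The simulated share of changed genes was far below the 46.4% called in the data, so these recoveries need not hold for the data. Ratios and Bhlhe41 were compared with exact two-sided permutation tests. Depth was estimated from the pile-up of FPKM times transcript length at 1 fragment, with GENCODE M21 lengths of genes with 1 transcript, and fragments per member from the longest transcript, so both are rough. Promoter windows are RefSeq's on GRCm38.p6, not the build of the values, and only the bases before the start site were used.

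The members and lists were chosen with earlier results of these data known. Named are the members, all core clock genes, up to 4 called genes per other list with the highest absolute moderated statistic, Rnf111 and the 5 tested genes with the highest correlation with Dbp. Some genes that this rule takes are counted but not reported by name. Alternatives were pseudocounts of 0.1 and 0.01, no filter, a mean FPKM of at least 5, 3 scalings, the replicate number as a block, eBayes without trend and leaving out each library, and a mean FPKM of at least 1 was added after seeing the data. Figures were drawn with matplotlib 3.10.9 in Python 3.11.15.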

Additional observations from a re-analysis of the deposited data

How the results depend on the processing

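Of 137 values of the members under alternatives 129 kept their direction and, where they were tested, their side of the threshold. None of the 137 changed direction. Bhlhe41 was tested only without the filter, so its other values are counted for direction alone. With quantile normalization Nfil3 lost its call (-0.17) while Hlf (0.39) and Wee1 (0.41) gained one, and median-ratio scaling also called Wee1 (0.37). Without the filter Bhlhe41 was called (-0.38). Leaving out 1 library gave 0.43 to 0.67 for Dbp, which lost its call without WT replicate 1 or 3, and 0.16 to 0.35 for Wee1. The cause of these changes was not tested. Members called lower numbered 2 without the filter, 0 with a mean FPKM of at least 5, which removes Nfil3, and 0 with quantile normalization. Rnf111 changed sign with quantile normalization (0.021).

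The difference between HET and WT in the log2 ratio of Bhlhe40 to Bhlhe41 was 1.82 and 2.27 with pseudocounts of 0.1 and 0.01, and the difference in that of Dbp to Bmal1 was 1.28 and 1.30, because a smaller pseudocount shrinks weak genes less. A mean FPKM of at least 5, which tests fewer genes, called 2 core clock genes higher and 2 clock protein modifiers lower. Modifiers called higher numbered 2 with a common sum and 4 with median-ratio scaling or quantile normalization, and 0 to 1 on leaving out a library, while 2 were lower with quantile normalization. Leaving out a library gave 4 to 9 reported PAR bZIP or Nfil3 targets higher and 0 to 1 lower. Quantile normalization called 7 partners of Wee1 higher. Reported Usp2 substrates lower numbered 1 with each of the 3 scalings and 1 to 2 on leaving out a library.

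The replicate number as a block left 5 members higher and 1 lower. Deviations of same-numbered libraries correlated at -0.0293, 0.132 and 0.322 across genes, and not every library correlated best with its own number, so the numbers were not taken to pair the libraries. With 3 libraries per genotype the exact tests cannot fall below p = 0.1, and Bhlhe41 and Ciart in WT rest on few fragments.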

Other observations

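Among tested genes, the 5 whose log2 levels followed Dbp most closely over the 6 libraries were Mrps31, Plscr1, Smlr1, Chmp1a and Cyp3a11, with Pearson r from 0.9947 to 0.9967. This is a description over 6 libraries that share the split by genotype and the low value of HET replicate 3. Plscr1, a phospholipid scramblase, was at 27.7, 30.5 and 21.0 FPKM in HET and at 17.6, 18.5 and 16.7 FPKM in WT (limma adjusted p = 0.0138). Mrps31, a mitochondrial ribosomal protein, was at 30.5 ± 2.77 FPKM in HET and 25.6 ± 0.397 FPKM in WT (adjusted p = 0.0339). Cyp3a11, which is also on the list of reported PAR bZIP targets, was at 291, 315 and 188 FPKM in HET and at 134, 153 and 121 FPKM in WT (adjusted p = 0.00847), again with HET replicate 3 lowest among the HET libraries. Smlr1 passed with a ratio of 1.23 and Chmp1a, of the membrane-remodelling ESCRT machinery, did not pass (77.7 ± 4.95 against 69.9 ± 1.1 FPKM, adjusted p = 0.0972).

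Ciart and Nr1d1, both known E-box targets, were also compared as a ratio within each library, which was higher in all 3 HET libraries than in any WT library. This had to be so, since Ciart was higher and Nr1d1 lower in every HET library than in any WT library. Ciart FPKM was 0.113, 0.0885 and 0.0993 times that of Nr1d1 in HET and 0.00859, 0.0197 and 0.011 times in WT.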
